A study of Homo sapiens with 6 samples.

Results

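Immune checkpoint ligands are the surface or secreted proteins through which a tumor cell can hold back T cells, natural killer cells and macrophages. The 10 genes followed here were chosen by their symbols, CD274, PDCD1LG2, CD276, VTCN1, LGALS9, PVR, PVRL2, CD47, CD80 and TNFRSF14. All 10 had an entry among the 25442 genes of the deposited table, and PVRL2 (now NECTIN2) was listed under its older name. The values come from RNA-seq of YAPC cells, a human pancreatic ductal adenocarcinoma (PDA) line used as a model of the classical subtype. The 3 YAPC-iGLI2 libraries were made from cells carrying human GLI2 cDNA in pRetroX-Tight-Puro, a retroviral vector whose promoter is switched on by doxycycline (Dox) through the rtTA activator. The 3 YAPC-iEV libraries were made from cells with the empty vector. Both groups received Dox for 6 days in full growth medium, so Dox and rtTA are shared and the labels differ in the insert. The study is about GLI2 and the subtype identity of PDA cells, and the comparison asks how forced GLI2 expression changes these transcripts in the tumor cell itself. Whether the lines were clones or pools was not given in the sources used here, and every iGLI2 library comes from a line engineered separately from the iEV line.

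Each ligand works by meeting a receptor on an immune cell. PD-L1 (CD274) and PD-L2 (PDCD1LG2) bind PD-1 on activated T cells and dampen their response. CD80 binds CD28 and CTLA-4 and can also pair with PD-L1 on the same membrane, and B7-H3 (CD276) and B7-H4 (VTCN1) are further B7 family proteins that restrain T cells. PVR (CD155) and nectin-2 (PVRL2) are adhesion proteins shared by the inhibitory receptor TIGIT and the activating receptor CD226. CD47 signals to SIRPα on macrophages and limits engulfment, galectin-9 (LGALS9) binds TIM-3 among other partners, and HVEM (TNFRSF14) engages BTLA and CD160. Interferon gamma is the best known inducer of CD274, acting in part through IRF1 at its promoter.

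The 250 bases upstream of the transcription start are shown for CD274 and CD47, which moved in opposite directions in these cells. They are RefSeq sequences, read on the strand of the gene, and each was placed by exact match in GRCh37 (hg19), the build of the deposited loci. CD274 lies on the plus strand of chromosome 9, and its window is chr9:5450292-5450541. CD47 lies on the minus strand of chromosome 3, and its window is chr3:107809879-107810128. Capitals mark matches to the letters GAAA and GAAA with NN between them (an IRF element, where N is any base) or TTCNNNGAA (a GAS element, bound by STAT factors) on either strand.
CD274: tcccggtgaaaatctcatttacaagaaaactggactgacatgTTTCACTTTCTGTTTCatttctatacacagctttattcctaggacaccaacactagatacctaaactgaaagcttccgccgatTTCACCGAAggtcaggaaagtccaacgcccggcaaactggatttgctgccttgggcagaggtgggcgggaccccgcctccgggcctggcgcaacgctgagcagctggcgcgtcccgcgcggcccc
CD47: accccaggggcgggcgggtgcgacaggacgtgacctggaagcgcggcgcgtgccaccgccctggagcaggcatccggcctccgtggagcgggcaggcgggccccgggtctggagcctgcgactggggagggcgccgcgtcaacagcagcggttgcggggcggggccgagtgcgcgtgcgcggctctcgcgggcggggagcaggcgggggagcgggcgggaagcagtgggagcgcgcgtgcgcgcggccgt
The CD274 window held overlapping IRF matches on the minus strand, at -208 to -199 and -202 to -193 counted from the first transcribed base, and a GAS match at -125 to -117. Of 35116 promoter windows of the same length in the RefSeq set, 3.02% held the IRF letters and 6.57% the GAS letters. The CD47 window held neither, and nor did the window of any other ligand gene found in the set. In the CD47 window 79.6% of bases were G or C, against 54.8% for CD274. The GLI consensus GACCACCCA, searched on both strands, was in none of the windows found for 9 of the 10 genes and in 0.199% of all windows. Its core CCACCC was present in those of LGALS9, PVR and PVRL2 and in 31.3% of all windows. PDCD1LG2 was without a window in the set. These matches describe letters only.

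GLI2 was listed at 0.466, 0.412 and 0.344 FPKM (fragments per kilobase of transcript, scaled to the fragments of the library) in iEV replicates 1 to 3 and at 94.5, 207 and 195 FPKM in iGLI2 replicates 1 to 3, so it was high in every library labeled iGLI2. Replicate 1 stood apart from replicates 2 and 3 in both groups. The median absolute difference over tested genes on the log2(FPKM + 1) scale was 0.136 and 0.141 between iEV replicate 1 and the other iEV libraries but 0.067 between iEV replicates 2 and 3. In iGLI2 cells it was 0.209 and 0.216 against 0.055. The labels do not say whether replicates were separate cultures, so p-values measure the spread between these libraries, which may be technical. The sample codes are YRE1A, YRE1B and YRE2A for iEV replicates 1 to 3 and YRG1A, YRG1B and YRG2B for iGLI2 replicates 1 to 3. The labels give no meaning for the digit or the last letter. Of 6 epithelial markers, 4 were tested and 2 were higher in iGLI2 cells. EPCAM averaged 405 ± 11.4 FPKM in iEV cells and 523 ± 2.55 FPKM with GLI2, and CDH1 averaged 53.2 ± 2.77 and 68.9 ± 3.88 FPKM (SD, n = 3 each; limma adjusted p = 0.00709 and 0.0169). For E-cadherin, the protein encoded by CDH1, the study reported the opposite direction, a decrease in YAPC cells stably expressing GLI2. The CDH1 values here are mRNA of the inducible line. KRT19, between 521 and 682 FPKM, and KRT7 did not pass (limma adjusted p = 0.195 and 0.388). KRT8 and KRT18 were listed at 0 in all 6 libraries, so a 0 in this table is not proof of absence. The summed level of 5 T cell markers was 0.842 to 1.14 FPKM in the iEV libraries and 0.318 to 0.530 FPKM in iGLI2 libraries, with CD2 at 0, and PTPRC, the pan-leukocyte marker, did not exceed 0.0343 FPKM. Of 5 myeloid markers only CD14 reached the 1 FPKM needed for testing, at 4.64 ± 0.583 FPKM in iEV cells and 1.62 ± 0.319 FPKM with GLI2 (SD, n = 3 each), and FCGR3A was at 0. The 6 fibroblast markers summed to 1.36 to 1.57 FPKM in the iEV libraries and 2.31 to 3.02 FPKM in iGLI2 libraries, nearly all of it COL1A1, with DCN at 0. The part of these markers in the results was not tested. In bulk RNA, fewer cells of a type and less RNA per cell cannot be told apart.

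Among the checkpoint ligands, CD274 rose and TNFRSF14 and CD47 fell in iGLI2 cells, each by less than 1.5-fold on the log2(FPKM + 1) scale. CD276, VTCN1, LGALS9, PVR and PVRL2 were tested and did not pass, and PDCD1LG2 and CD80 were too low to test. Of the 10 genes, 8 averaged 1 FPKM or more across all 6 libraries and entered the fit of 12493 genes with limma, a two-sided moderated test with Benjamini-Hochberg adjustment over all genes. The 1 gene called higher and the 2 called lower out of 8 stand beside 10.1% and 11.8% of all genes tested, 21.9% in all, so the share of ligands called was not set apart from the rest of the transcriptome by these counts. Groups did not overlap for 5 of the 8, where 42% of all genes tested showed the same. With a replicate block 2 of the 8 were higher and 2 lower, beside 14.5% and 17% of all genes tested (31.4% in all). The median log2 fold change of the 8 genes was -0.068, against -0.015 for all genes tested. Of the calls over all genes, 46.0% were higher in iGLI2 cells, and 59.4% were higher when small RNA genes were left out and the libraries rescaled. With that scaling, CD276 joined CD274 as higher and CD47 no longer passed.

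The ligands differed far more in level than in response. In iEV cells TNFRSF14 (78.4 ± 3.05 FPKM) and CD47 (77.1 ± 3.82 FPKM) were the most abundant and overlapped each other. CD276 (37.2 ± 3.38 FPKM), PVRL2 (35.4 ± 0.379 FPKM) and LGALS9 (33.4 ± 6.37 FPKM) followed, each overlapping its neighbor in the order. PVR (13.5 ± 0.937 FPKM), VTCN1 (8.99 ± 2.82 FPKM), CD274 (3.29 ± 0.516 FPKM), PDCD1LG2 and CD80 came next, with no overlap from 1 gene to the following. All errors are SD with n = 3. In iGLI2 cells CD47 (56.7 ± 6.87 FPKM) and TNFRSF14 (52.6 ± 1.88 FPKM) still led and overlapped, and CD276 (44.6 ± 2.30 FPKM) now stood clear of PVRL2 (35.7 ± 4.01 FPKM), which overlapped LGALS9 (29.8 ± 1.31 FPKM). VTCN1 (12.1 ± 3.26 FPKM) and PVR (12.1 ± 1.102 FPKM) overlapped in these cells, ahead of CD274 (4.69 ± 0.252 FPKM). Summed over the 10 genes, ligand mRNA amounted to 279 to 304 FPKM in the iEV libraries and 247 to 251 FPKM in the iGLI2 libraries. The total over all entries was also lower, at 981344 to 1082687 FPKM in iEV and 803149 to 889559 FPKM in iGLI2 libraries. The small RNA entry MIR4461 held 42.6% to 45.4% of that total in iEV and 35.7% to 37.7% in iGLI2 libraries. Of the sum of ligand means, TNFRSF14 and CD47 supplied 27.2% and 26.8% in iEV cells and 21.1% and 22.8% in iGLI2 cells. CD274 supplied 1.14% and 1.89%, so that PD-L1 mRNA was a minor component in both states.

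**Figure D1:**
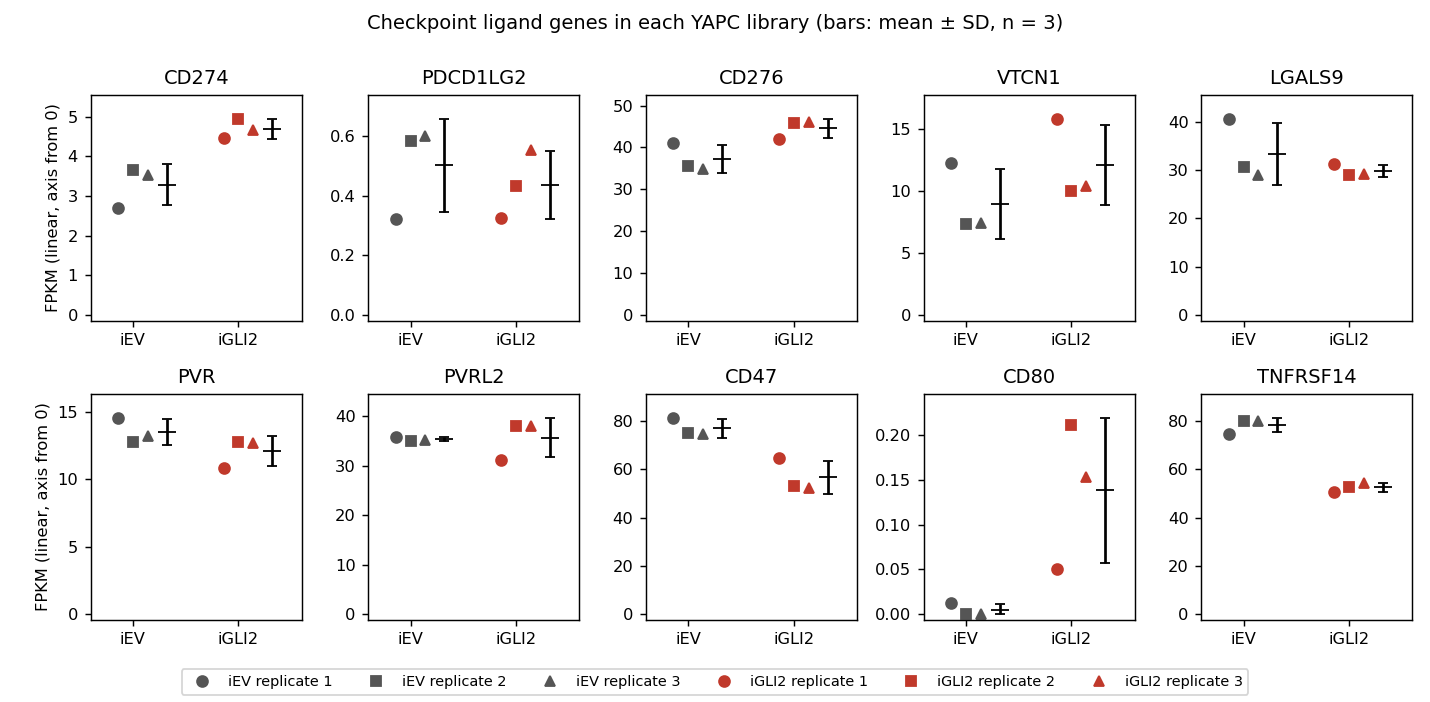
Level of each checkpoint ligand gene in FPKM (vertical axes, linear and starting at 0, with a different range for each gene) in the 3 iEV and 3 iGLI2 libraries; symbols mark the replicate number and black bars the mean ± SD. All iGLI2 points lie above all iEV points for CD274, CD276 and CD80, and below them for TNFRSF14 and CD47. For PVR the replicate 2 squares of the groups are level to the digits given. The replicate 1 circle sits highest in both groups for VTCN1, LGALS9 and CD47.

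CD274 had 2.70, 3.65 and 3.53 FPKM in iEV replicates 1 to 3 and 4.46, 4.96 and 4.66 FPKM in iGLI2 replicates 1 to 3. Every iGLI2 library was thus above every iEV library, and iEV replicate 1 was the lowest of the 6. The log2 fold change was 0.41 (95% interval 0.15 to 0.67, limma adjusted p = 0.0406). The call was narrow. With a single library left out it was lost without iEV replicate 2 (adjusted p = 0.0739), iEV replicate 3 (0.0912), iGLI2 replicate 2 (0.133) or iGLI2 replicate 3 (0.112). Fits without both libraries of a replicate number were added after seeing the data. Without both replicate 1 libraries the limma adjusted p was 0.0147, in a fit where 5467 of the 12493 genes tested were called. Without both replicate 2 or both replicate 3 libraries it was 0.252 and 0.242. The gene spans chr9:5450503-5470567, has 7 exons and a coding sequence of 870 bases, and the annotation places an uncharacterized antisense lncRNA across it. PDCD1LG2, the other PD-1 ligand, begins 39977 bases further along the same strand at chr9:5510545-5571282. It measured 0.3204, 0.585 and 0.599 FPKM in iEV replicates 1 to 3 and 0.325, 0.431 and 0.552 FPKM in iGLI2 replicates 1 to 3. The groups overlapped almost fully, and in both the replicate 1 library was the lowest. When the filter on low values was removed, its log2 difference was -0.06 with a 95% interval from -0.30 to 0.18 (limma adjusted p = 0.725). The nearest tested genes on either side of CD274 did not pass the test. They are PLGRKT (log2 fold change -0.57, limma adjusted p = 0.0560) and RIC1 (-0.10, 0.502), named after their values were seen.

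CD276 encodes B7-H3, a surface protein common on carcinoma cells, and spans chr15:73976622-74006859 with 10 exons. It had 41.1, 35.5 and 34.9 FPKM in the iEV libraries and 42.0, 45.8 and 46.0 FPKM in iGLI2 replicates 1 to 3. The groups did not overlap, but the replicate 1 libraries of the 2 groups were within 1 FPKM of each other while the remaining libraries lay well apart. The log2 fold change was 0.26 (95% interval 0.05 to 0.46) and did not pass after adjustment (limma adjusted p = 0.0789). It passed with small RNA genes left out and the libraries rescaled (log2 fold change 0.34, limma adjusted p = 0.0326), without iEV replicate 1 (0.33, 0.0379) and without both replicate 1 libraries (0.37, 0.00321). The last fit called 5467 of the 12493 genes tested. CD276 also passed with that rescaling and a replicate block, chosen after seeing the data (limma adjusted p = 0.0153). That fit called 4895 of 12155 genes tested. The limma adjusted p of CD276 was 0.496 without both replicate 2 libraries and 0.446 without both replicate 3 libraries. VTCN1 encodes B7-H4 and lies at chr1:117686209-117753582. It measured 12.2, 7.30 and 7.41 FPKM in iEV replicates 1 to 3 and 15.9, 10.04 and 10.4 FPKM in iGLI2 replicates 1 to 3. The groups overlapped because replicate 1 was the highest library in each, at 1.66 times the mean of iEV replicates 2 and 3 and 1.55 times that of iGLI2 replicates 2 and 3. Its log2 fold change of 0.40 had a wide 95% interval, -0.20 to 1.00 (limma adjusted p = 0.307). Without both replicate 1 libraries it was 0.42 (limma adjusted p = 0.00573), in the fit that called 5467 of the 12493 genes tested. For VTCN1 the limma adjusted p was 0.593 without both replicate 2 libraries and 0.589 without both replicate 3 libraries. CD80, the B7 protein of antigen-presenting cells, was listed at 0.0127, 0 and 0 FPKM in the iEV libraries and at 0.0507, 0.211 and 0.154 FPKM in iGLI2 cells. All iGLI2 values were above the iEV values, but all were far below 1 FPKM, and with the filter removed the limma adjusted p was 0.0775. CD80, at chr3:119243140-119278481, lies end to end with TIMMDC1, a mitochondrial assembly factor gene of the opposite strand. TIMMDC1, named after its values were seen, averaged 69.3 ± 5.15 FPKM in iEV cells and 84.8 ± 8.77 FPKM with GLI2 (SD, n = 3 each). The loci do not overlap in the table, but the GENCODE exons of the pair share 798 bases. The TruSeq RNA kit does not mark strand, and the part of TIMMDC1 reads in the CD80 values was not tested.

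PVR and PVRL2, the ligands shared by TIGIT and CD226, lie near each other on chromosome 19, at chr19:45147098-45169428 and chr19:45349393-45392485. PVR measured 14.6, 12.8 and 13.2 FPKM in iEV replicates 1 to 3 and 10.8, 12.8 and 12.7 FPKM in iGLI2 replicates 1 to 3. The iGLI2 libraries were all lower, but iEV replicate 2 and iGLI2 replicate 2 were level to the digits given. The log2 fold change was -0.15 (95% interval -0.36 to 0.06, limma adjusted p = 0.279), and -0.03 without both replicate 1 libraries. PVRL2 had 35.8, 35.1 and 35.2 FPKM in iEV, the tightest group of any ligand relative to its mean, and 31.1, 38.1 and 38.0 FPKM in iGLI2 cells. The iGLI2 values straddled the iEV values, giving a log2 fold change of 0.01 (95% interval -0.22 to 0.23, limma adjusted p = 0.968). Without both replicate 1 libraries it was 0.11 (limma adjusted p = 0.0424), in a fit where 5467 of the 12493 genes tested were called. Without both replicate 2 or both replicate 3 libraries it was -0.05 and -0.04 (limma adjusted p = 0.893 and 0.887). PVRL2 was flanked by tested genes that moved in opposite directions. BCAM, a laminin-binding surface protein, rose from 12.8 ± 1.19 to 35.0 ± 11.2 FPKM (SD, n = 3 each; limma adjusted p = 0.0155). TOMM40, a mitochondrial import channel that starts 1992 bases beyond PVRL2, fell from 51.8 ± 1.35 to 38.3 ± 4.29 FPKM (SD, n = 3 each; limma adjusted p = 0.0238).

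CD47, the signal that restrains phagocytosis, is encoded on the minus strand at chr3:107761941-107809935. It measured 81.5, 75.0 and 74.7 FPKM in iEV replicates 1 to 3 and 64.6, 53.3 and 52.2 FPKM in iGLI2 replicates 1 to 3. Every iGLI2 library was below every iEV library, and replicate 1 was the highest in each group. The log2 fold change was -0.44 (95% interval -0.68 to -0.20, limma adjusted p = 0.0263). The call was lost when any library except iGLI2 replicate 1 was left out, with adjusted p-values of 0.0733, 0.0859 and 0.0806 without iEV replicates 1, 2 and 3 and of 0.0972 and 0.0853 without iGLI2 replicates 2 and 3. It was also lost with small RNA genes left out and the libraries rescaled (log2 fold change -0.37, limma adjusted p = 0.0764) and narrowly under quantile normalization (-0.42, 0.0516). Without both replicate 1 libraries it reached -0.50 (limma adjusted p = 0.00188), in a fit where 5467 of the 12493 genes tested were called. Without both replicate 2 or both replicate 3 libraries it was -0.42 and -0.41 (limma adjusted p = 0.269 and 0.223). No tested gene next to CD47 passed the test.

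TNFRSF14 encodes HVEM, a TNF receptor family member that acts as a ligand for BTLA and as a receptor for LIGHT. It measured 74.9, 80.1 and 80.2 FPKM in iEV replicates 1 to 3 and 50.7, 52.5 and 54.5 FPKM in iGLI2 replicates 1 to 3. The groups were separated by more than 20 FPKM, and the log2 fold change was the largest in size among the 8 ligands tested. It was -0.57 (95% interval -0.72 to -0.42, limma adjusted p = 0.00233). It passed in all 6 fits that left out a single library and under all 10 other settings, but not when both replicate 2 libraries (adjusted p = 0.108) or both replicate 3 libraries (0.0753) were removed. The table gives TNFRSF14 the locus chr1:2481359-2497061, which starts upstream of its main transcript because it is shared with LOC115110 (now TNFRSF14-AS1), a noncoding gene on the opposite strand. LOC115110 measured 44.2, 35.3 and 35.6 FPKM in iEV replicates 1 to 3 and 25.4, 25.4 and 25.3 FPKM in iGLI2 replicates 1 to 3, and fell by 0.57 on the log2 scale (limma adjusted p = 0.0114). The annotated exons of the pair share 826 bases, and with unstranded libraries reads from that stretch cannot be told apart. HES5, a Notch target gene at lower coordinates than the shared locus, rose from 0.198 ± 0.0884 to 2.31 ± 0.935 FPKM (SD, n = 3 each; limma adjusted p = 0.0103). The iEV mean of HES5 lay below the 1 FPKM filter, which the gene passed through its iGLI2 values.

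LGALS9 encodes galectin-9, a secreted lectin, and lies at chr17:25958174-25976586. It measured 40.6, 30.5 and 28.9 FPKM in iEV replicates 1 to 3 and 31.3, 29.0 and 29.1 FPKM in iGLI2 replicates 1 to 3. The groups overlapped, and iEV replicate 1 alone was above all others. The log2 fold change was -0.14 (95% interval -0.47 to 0.18, limma adjusted p = 0.490), and without iEV replicate 1 it was 0.003. Near-identical copies of the gene, LGALS9B and LGALS9C, lie elsewhere on chromosome 17, and how multiply mapping reads were divided was not given in the sources used here. LGALS9B did not exceed 0.367 FPKM. LGALS9C, named after its values were seen, fell from 1.68, 2.62 and 2.31 FPKM in iEV to 0.370, 0.384 and 0.522 FPKM in iGLI2 cells (log2 fold change -1.16, limma adjusted p = 0.00326). The iGLI2 mean of LGALS9C, 0.425 FPKM, lay below the 1 FPKM filter, which the gene passed through its iEV values. With the division of multiply mapping reads unknown, levels of the 3 galectin-9 genes are uncertain.

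**Figure D2:**
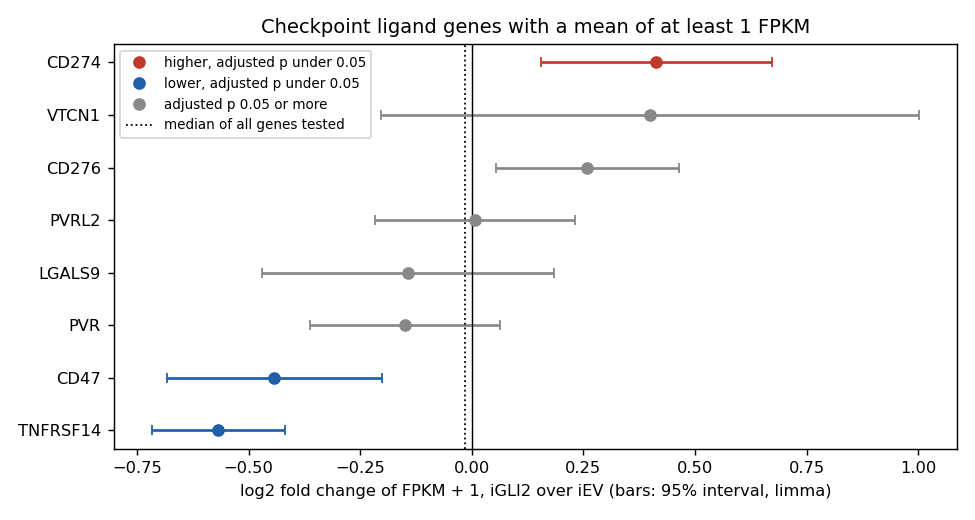
Change in log2(FPKM + 1), iGLI2 minus iEV (horizontal axis), of the 8 checkpoint ligand genes tested, with bars for the 95% interval from limma and a dotted line at the median of all genes tested. CD274 is the gene called higher at 0.41, CD47 and TNFRSF14 are those called lower at -0.44 and -0.57, and the interval of VTCN1, -0.20 to 1.00, is the widest.

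**Figure D3:**
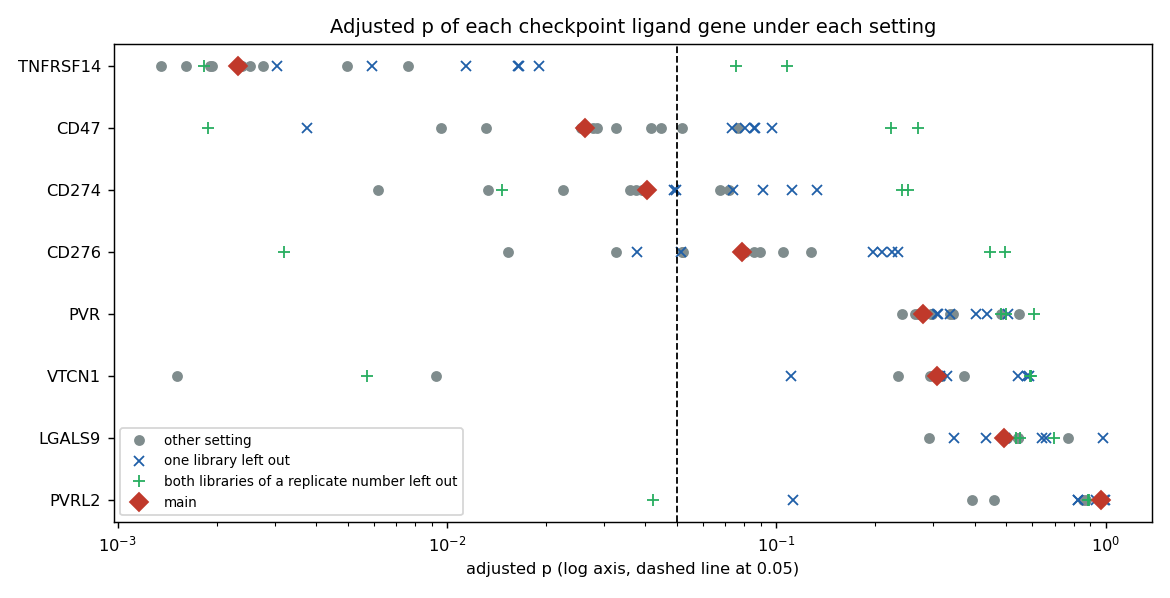
Adjusted p (horizontal log axis, dashed line at 0.05) of each tested ligand in the main comparison, under other settings and with libraries left out, each symbol being 1 fit. TNFRSF14 crosses the line only when both libraries of replicate 2 or 3 are removed, whereas CD47, CD274, CD276, VTCN1 and PVRL2 have points on both sides of it and the points of LGALS9 and PVR all lie above 0.05.

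The wider set of genes around these ligands was read from 7 lists written from general knowledge. In 6 of them 59 genes were tested and are described here, and 4 were higher and 11 lower in iGLI2 cells, where 10.1% and 11.8% of all genes tested were called. Counts within a list are too small to be read against those shares. The remaining list held 15 receptors that immune cells use to read these ligands, among them CTLA4, TIGIT, BTLA and SIRPA. None reached a mean of 1 FPKM over the 6 libraries (CD96 came nearest, with group means of 1.07 FPKM for iEV and 0.917 FPKM for iGLI2), and 4 were listed at 0 in all libraries. Of the 15 calls, 9 held whichever single library was left out, and those were CD24, PVRL1, LGALS3, TNFSF15, IFNGR1, PTPN1, HIP1R, NT5E and PTGES. Between 0 and 6 of the 15 were lost with a given library out, 5 each without iEV replicates 2 and 3 and iGLI2 replicate 3, 6 without iGLI2 replicate 2 and 0 without replicate 1 of either group.

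Of the other inhibitory ligands, 14 of 23 were tested, 2 were higher and 3 lower, and the median log2 fold change was -0.023. CD24, which signals to Siglec-10 on macrophages, rose from 7.99 ± 2.37 to 36.3 ± 11.9 FPKM (SD, n = 3 each; log2 fold change 2.04, limma adjusted p = 0.00452). It thus rose while CD47, a macrophage signal of the same kind, fell, with the limit that the table places CD24 at a copy on chromosome Y and that near-identical copies can share its reads. PVRL1 (nectin-1), a nectin relative of PVR and PVRL2, rose from 11.3 ± 0.806 to 19.1 ± 0.684 FPKM (SD, n = 3 each; log2 fold change 0.71, limma adjusted p = 0.00161). LGALS3 and LGALS1, the abundant galectins 3 and 1, fell from 725 ± 41.0 to 495 ± 21.2 FPKM and from 566 ± 68.2 to 391.6 ± 47.1 FPKM (SD, n = 3 each; limma adjusted p = 0.00417 and 0.0361). HLA-E, a ligand of the NKG2A receptor, fell from 78.8 ± 9.36 to 56.5 ± 2.91 FPKM (SD, n = 3 each; limma adjusted p = 0.0251).

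Of the costimulatory ligands, 6 of 10 were tested, 0 were higher in limma (also 0 at an unadjusted p under 0.05) and 1 was lower. The gene called was TNFSF15, a TNF family cytokine of epithelium and endothelium, which fell from 17.7 ± 1.02 to 9.13 ± 1.88 FPKM (SD, n = 3 each; limma adjusted p = 0.00945). CD86, a B7 relative of CD80 also named after its values were seen, averaged under 0.1 FPKM in either group. Of the ligands that activate natural killer cells, 8 of 10 were tested, 1 was higher and 0 were lower in limma (also 0 at an unadjusted p under 0.05). That gene, RAET1L, a ligand of NKG2D, had 0.999, 0.425 and 0.838 FPKM in the iEV libraries and 1.88, 2.73 and 3.09 FPKM in iGLI2 cells (limma adjusted p = 0.0144), and it has close relatives in the ULBP family that can share reads. Its iEV mean, 0.754 FPKM, lay below the filter, which it passed through its iGLI2 values. RAET1E, named after its values were seen, went from 0.926 ± 0.324 to 0.368 ± 0.0876 FPKM (SD, n = 3 each) with no overlap and was left untested by the same filter, so the counts of this list depend in part on the filter.

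Of 13 genes of interferon gamma signaling described here, a pathway that acts on the CD274 promoter, all were tested. In limma 0 were higher and 4 lower, and at an unadjusted p under 0.05, 1 was higher and 5 lower. The gene higher at that level was IRF9, named after its values were seen. It averaged 39.3 ± 0.931 FPKM in iEV cells and 48.2 ± 5.87 FPKM with GLI2 (SD, n = 3 each; limma adjusted p = 0.0982). IFNGR1, the ligand-binding receptor chain, had 40.6, 61.8 and 57.8 FPKM in the iEV libraries and 20.4, 23.9 and 22.8 FPKM in iGLI2 cells (log2 fold change -1.20, limma adjusted p = 0.00547). IRF1, the transcription factor that binds the IRF element, fell from 46.9 ± 7.24 to 28.0 ± 3.80 FPKM (SD, n = 3 each; limma adjusted p = 0.0218). PTPN1, a phosphatase that restrains JAK signaling, fell from 45.3 ± 1.61 to 34.9 ± 0.181 FPKM (SD, n = 3 each; limma adjusted p = 0.00709). STAT3, named after its values were seen, fell from 51.8 ± 0.636 to 41.9 ± 0.706 FPKM (SD, n = 3 each; limma adjusted p = 0.0112). CD274 was higher in cells in which IFNGR1 and IRF1 were lower, and a link between these changes was not tested. The calls of CD274 and IRF1 each held in 2 of the 6 fits that left out a single library.

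Of 13 genes described here that act on the PD-L1 or CD47 protein after translation, all were tested. In limma 0 were higher and 2 lower (1 and 2 at an unadjusted p under 0.05). HIP1R, which routes PD-L1 to the lysosome, fell from 23.1 ± 4.18 to 11.4 ± 0.581 FPKM (SD, n = 3 each; limma adjusted p = 0.00467). B3GNT3, a glycosyltransferase that modifies PD-L1, fell from 70.6 ± 6.15 to 46.1 ± 5.70 FPKM (SD, n = 3 each; limma adjusted p = 0.0142). CMTM6, which protects PD-L1 at the surface and was named after its values were seen, averaged 103 ± 14.9 FPKM in iEV cells and 142 ± 26.5 FPKM with GLI2 (SD, n = 3 each) and did not pass (limma adjusted p = 0.101). Of the immunosuppressive enzymes, 5 of 10 were tested, 1 was higher and 1 lower. NT5E, the CD73 ectoenzyme that makes adenosine, rose from 71.4, 75.8 and 77.1 FPKM to 149, 154 and 153 FPKM (log2 fold change 1.01, limma adjusted p = 0.000351). PTGES, the terminal enzyme of prostaglandin E2 synthesis, fell from 26.5, 35.3 and 30.4 FPKM to 5.73, 7.19 and 6.92 FPKM (log2 fold change -2.06, limma adjusted p = 0.000440). Both changes were larger than that of any checkpoint ligand tested.

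**Figure D4:**
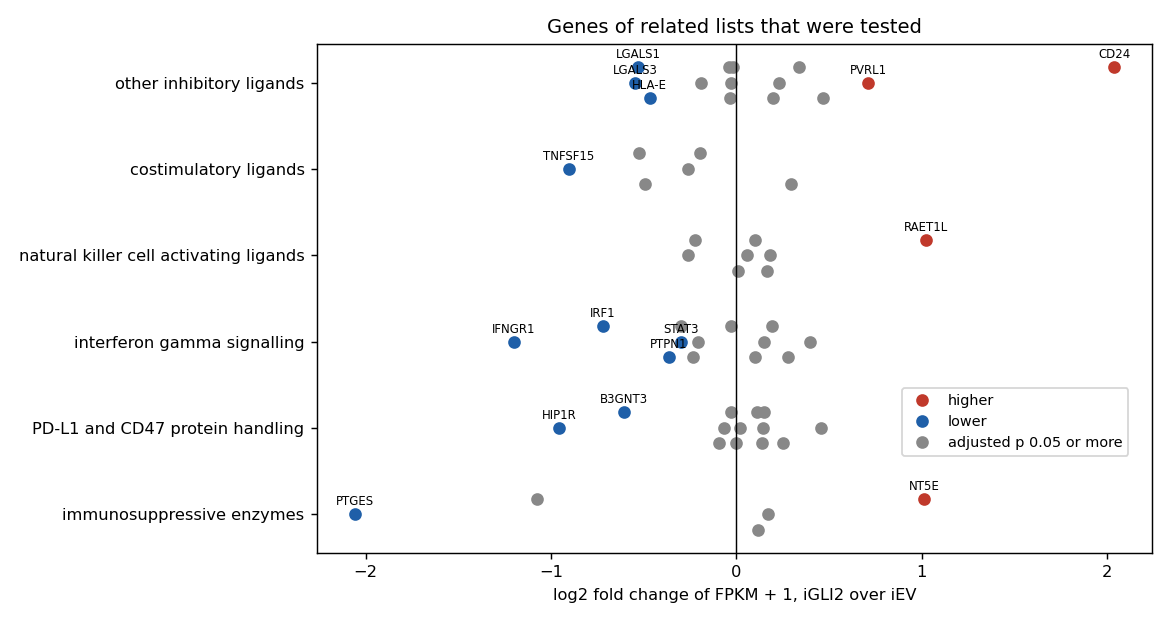
Change in log2(FPKM + 1), iGLI2 minus iEV (horizontal axis), of 59 tested genes of 6 related lists (rows), 1 dot a gene, with red for higher, blue for lower and gray for an adjusted p of 0.05 or more. The named dots are the 15 genes called, from PTGES at -2.06 to CD24 at 2.04.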

How the data were processed

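The 3 iEV and 3 iGLI2 libraries of YAPC cells, made with a TruSeq RNA kit, were grouped and numbered by their labels. The authors used Trimmomatic, TopHat2 (hg19) and Cuffdiff 2.1.1, and the deposited values are read as FPKM, a unit the header does not name. Their annotation, the scaling between libraries and the handling of multiply mapping reads were not given in the sources used here. Depth is unknown: ratios of low values between libraries had no sharp peak, so no counting error is stated. Of 27024 entries, 1252 lie off the primary chromosomes and 330 repeat the name of a higher entry, which left 25442 genes, 12493 of them with a mean of at least 1 FPKM. Starts of loci were converted to 1-based. log2(FPKM + 1) was tested with limma 3.58.1 in R 4.3.3 (condition only, intensity trend, adjusted p under 0.05), and the script was tested on simulated data. Adding 1 understates changes of low genes. Exact permutation of 3 against 3 libraries cannot give a p under 0.1. The members and lists were chosen with earlier results of these data known. Named were all members, GLI2, the called genes of each related list with the largest changes (up to 3 in each direction), and called neighbors of members. Some genes of the related lists are not reported here and are left out of their counts. Gene structures came from GENCODE release 44 lifted to GRCh37, and promoter windows from RefSeq (GRCh38.p14). Alternatives were other scalings, pseudocount 0.1, no filter or 5 FPKM, a replicate block, the sample code digit, no trend and libraries left out. Python 3.11.15 was used.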

Additional observations from a re-analysis of the deposited data

How the results depend on the processing

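Depth is unknown and limits what can be said of PDCD1LG2 and CD80. Of the ligands, 1 was higher and 2 were lower. With small RNA genes left out and the libraries rescaled, 2 were higher and 1 lower (7 higher among related genes), and under quantile normalization 1 was lower. Of all genes, 1262 were higher and 1480 lower in the main fit. The counts were 1789 and 1225 with that rescaling, and 1254 and 1523 under quantile normalization. The number of ligands higher was 0 with no filter (all genes: 1491 higher) and with the sample code digit as a term (all genes: 962 higher). It was also 0 with a mean of at least 5 FPKM, which drops CD274 (all genes: 824 higher). With single libraries left out, 0 to 2 ligands were higher and 1 to 2 lower, 3 to 7 related genes were higher and 6 to 13 lower, and 608 to 1855 of all genes were higher and 615 to 1898 lower. Leaving out both libraries of a replicate number was added after seeing the data. Without replicate 1, 4 ligands were higher and 2 lower, 12 related genes were higher and 17 lower, and 2661 of all genes were higher and 2806 lower. Without replicate 2 or 3, TNFRSF14 and every other ligand missed the threshold in limma (0 higher, 0 lower), 1 related gene was higher and 1 lower, and of all genes 128 or 155 were higher and 65 or 112 lower. The same number in both groups is no shown pairing, since deviations of same-numbered libraries correlated at 0.204, 0.092 and 0.028 and iEV replicate 2 correlated better with iGLI2 replicate 3 (0.117). With the replicate block, calls over all genes rose from 2742 to 3928 (31.4%), 2 ligands (CD274 and VTCN1, limma adjusted p = 0.00924) and 7 related genes were higher, and 2 ligands and 16 related genes were lower. CMTM6 then passed as higher (limma adjusted p = 0.00986). With the block and the small RNA rescaling, chosen after seeing the data, 3 ligands, 17 related genes and 3010 of all genes were higher, and 2, 15 and 1885 were lower. With single libraries left out the log2 fold change of LGALS9 ran from -0.236 to 0.00316 (turning without iEV replicate 1) and that of PVRL2 from -0.041 to 0.101 (turning without iGLI2 replicate 2 or 3), and PVRL2 also turned without both replicate 2 (-0.047) or both replicate 3 (-0.042) libraries. The causes were not tested.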

Other observations

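PDCD1, which encodes the PD-1 receptor for CD274 and PDCD1LG2, is normally a gene of activated lymphocytes. It had 0.128, 0.116 and 0.0871 FPKM in iEV replicates 1 to 3 and 0.651, 1.02 and 1.099 FPKM in iGLI2 replicates 1 to 3. Every iGLI2 library was above every iEV library, by 8.38 times in the ratio of means. The gene was named after its values were seen and has a mean under 1 FPKM, so it was not in the main test. With the filter on low values removed, the change in log2(FPKM + 1) was 0.79 (95% interval 0.55 to 1.02, limma adjusted p = 0.00533). Of the 5 T cell markers, none of which reached 1 FPKM, CD8A averaged 0.513 FPKM without GLI2 and 0.238 FPKM with it, CD3D 0.266 and 0.117 FPKM, CD3G 0.244 and 0.0411 FPKM and CD3E 0.0203 and 0.00714 FPKM, and CD2 was listed at 0. Their part in the PDCD1 values was not tested.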
